A study of Macaca fascicularis with 3 samples.

Results

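The miR-34 and miR-449 family was examined in small RNA libraries from the kidney cortex of 3 naïve cynomolgus monkeys (Macaca fascicularis), 1 library per animal. Members were chosen by name alone, as listed miRNAs with the stem miR-34a, miR-34b, miR-34c, miR-449a, miR-449b or miR-449c. Of the 432 listed mature miRNAs 3 were members, namely miR-34a-5p, miR-34a-3p and miR-34c-5p. The stems miR-34b, miR-449a, miR-449b and miR-449c were not listed, and neither was the 3p arm of miR-34c. All animals were untreated and between 2 and 3 years of age, and they form a single group, so the values below are levels and differences between animals and not effects of a condition. The cortex is the outer layer of the kidney, and each piece of 25 to 30 mg holds many cell types. In such bulk tissue, fewer cells of a type and less RNA per cell cannot be told apart.

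A miRNA gene is transcribed as a hairpin precursor that is cut into a 5p and a 3p strand. One strand is usually retained by an Argonaute protein and guides it to messenger RNAs that match the seed, the bases near the 5′ end of the strand. The 5p strands of miR-34a, miR-34c and miR-449a share a seed, which is why they are counted as one family. miR-34a has its own gene, a direct transcriptional target of the tumour suppressor p53, and its known targets act in the cell cycle, survival and metabolism. miR-34b and miR-34c come from a shared precursor transcript, and the miR-449 genes lie together within an intron of CDC20B. These latter genes are known mainly from multiciliated epithelia such as those of the airway and the oviduct, and from the testis, while miR-34a is found broadly across tissues.

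Depth, as counts assigned to listed miRNAs, was 4305977 for animal 1, 4707892 for animal 2 and 3957188 for animal 3. Levels are given as CPM, counts per 1000000 of these, and 3 counts correspond to 0.697, 0.637 and 0.758 CPM. The library of animal 3 stood apart on the low side. In it, 22 of 391 miRNAs were more than 4-fold below both other animals, against 0 in animal 1 and 0 in animal 2. On the high side, 0, 2 and 2 miRNAs were more than 4-fold above both others in animals 1, 2 and 3. Results on spread are therefore also given without animal 3. miRNAs known from kidney epithelium (miR-192, miR-194, miR-204, miR-200a, miR-200c and miR-429, with miR-200b not listed) summed to between 6.93% and 8.26% of the counts. Erythroid miRNAs summed to between 0.437% and 0.576%, leucocyte miRNAs to between 0.152% and 0.173%, muscle miRNAs to between 363 and 562 CPM, and neuron miRNAs to between 99.8 and 119 CPM. No listed name of these lists was at 0 in a library.

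miR-34a-5p, the guide strand of the miR-34a hairpin, made up nearly the whole family. It had 6971 counts in animal 1, 9029 in animal 2 and 4821 in animal 3. On the CPM scale these values are 1619, 1918 and 1218, with Wilson 95% confidence intervals of 1581 to 1657, 1879 to 1958 and 1184 to 1253. Animal 2 was highest and animal 3 lowest, and the 3 intervals, which cover counting error only, did not overlap. The mean was 1585 CPM ± 351 (SD, n = 3), and miR-34a-5p ranked 70 of 432 by mean CPM. Within single libraries it ranked 67, 65 and 74 in animals 1, 2 and 3.

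miR-34a-3p, the opposite strand of the same hairpin, was far lower. It had 95, 94 and 67 counts in animals 1, 2 and 3, or 22.06, 19.97 and 16.93 CPM. The Wilson 95% confidence intervals, 18.05 to 26.97, 16.32 to 24.43 and 13.33 to 21.50 CPM, all overlapped, so no order of the animals was resolved at this depth. Its mean was 19.7 CPM ± 2.58 (SD, n = 3), at rank 269.

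miR-34c-5p, which carries the same seed as miR-34a-5p but comes from the miR-34b and miR-34c gene, was at the edge of the list. It had 5, 7 and 5 counts in animals 1, 2 and 3, with exact Poisson 95% intervals of 1.62 to 11.7, 2.81 to 14.4 and 1.62 to 11.7 counts. The mean was 1.30 CPM ± 0.167 (SD, n = 3), at rank 427. Its sum over the libraries was 17 counts, and the smallest sum of any listed miRNA was 15, the minimum named in the file header. Only 4 listed miRNAs had a smaller sum. A miRNA below that minimum would not be listed, so the missing miR-34b and miR-449 names do not show a count of 0, and whether those names were in the reference used for mapping was not given in the sources used here.

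With a minimum of 10 counts in every library, miR-34a-5p and miR-34a-3p were detected and miR-34c-5p was not, where 81.9% of all listed miRNAs were. All 3 members together took 0.164%, 0.194% and 0.124% of the counts in animals 1, 2 and 3, with Wilson 95% bounds of 0.160 to 0.168, 0.190 to 0.198 and 0.120 to 0.127. The mean family share was 0.161% ± 0.0353 (SD, n = 3). miR-34a-5p held 98.7% ± 0.196 (SD, n = 3) of the family's counts.

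**Figure D1:**
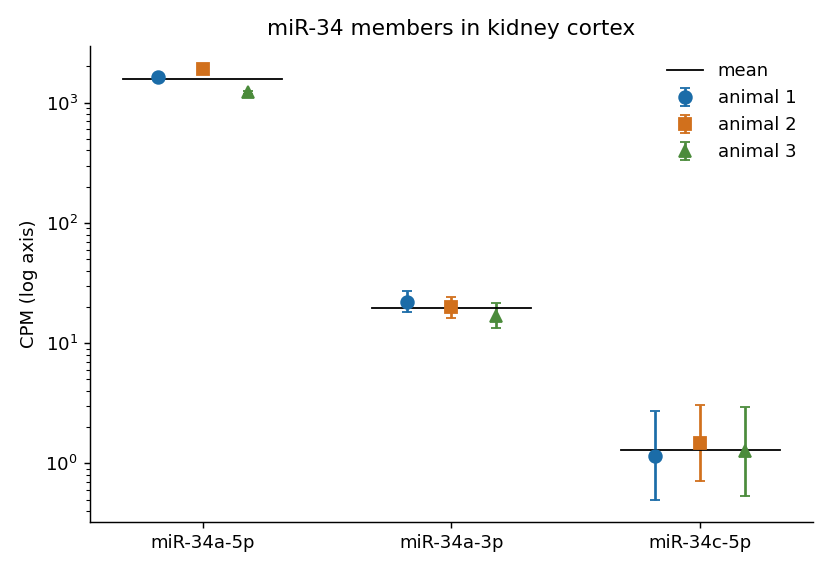
CPM of the 3 listed members on a log axis, with 1 point per animal, Wilson 95% confidence intervals as bars and the mean over 3 animals as a line. miR-34a-5p lies between 1218 and 1918 CPM, miR-34a-3p between 16.9 and 22.1 CPM, and miR-34c-5p between 1.16 and 1.49 CPM, with no overlap between members.

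The order of the members was the same in every animal. miR-34a-5p lay above miR-34a-3p in 3 of 3 animals, with a log2 difference averaging 6.31 ± 0.23 (SD). miR-34a-3p lay above miR-34c-5p in 3 of 3 animals, by 3.80 ± 0.28 on the log2 scale. For both of the 2 neighbouring pairs a two-sided sign-flip test gave an exact permutation p of 0.25 (adjusted over the 2 pairs 0.25), the smallest that 3 animals allow. Between the 5p strands that share a seed, miR-34a-5p had 1394 times the counts of miR-34c-5p in animal 1 (exact 95% counting interval 597 to 4295), 1290 times in animal 2 (626 to 3209) and 964 times in animal 3 (413 to 2971). These intervals overlap widely because of the few miR-34c-5p counts.

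Against miRNAs of other families next to it in level, miR-34a-5p did not keep a fixed order over the animals. Next above it in mean CPM were miR-92a-3p with 1590 CPM ± 213 (SD, n = 3) and miR-17-5p with 1601 CPM ± 162, both products of the growth-associated miR-17-92 cluster. Next below it were miR-374b-5p with 1569 CPM ± 113 and miR-221-3p with 1513 CPM ± 966. Each of miR-17-5p, miR-92a-3p and miR-374b-5p exceeded miR-34a-5p in 1 of 3 animals, and miR-221-3p did so in 2 of 3. None of these 4 neighbours kept its order to miR-34a-5p in all animals, and the exact sign-flip permutation p was 1.0 for each (adjusted over the 4 pairs 1.0). The 4 were picked for a mean CPM close to that of miR-34a-5p in these same libraries. A high p was thus largely built in, and the test cannot say how well the rank is resolved.

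Differences between animals were then set against those of every miRNA averaging 10 or more counts. For this, CPM were scaled by TMM factors, which correct library totals for a few abundant miRNAs. Scaled levels of miR-34a-5p were 1601, 1823 and 1295 CPM in animals 1, 2 and 3. The highest animal exceeded the lowest by 1.41-fold (exact 95% counting interval 1.36 to 1.46). The chi-square test of homogeneity between libraries called miR-34a-5p, with a Benjamini-Hochberg adjusted p of 1.65e-80. The same test called 80.6% of the 391 miRNAs tested, so the call does not set miR-34a-5p apart. The test weighs differences between animals against counting error alone. Without animal 3, miR-34a-5p differed by 1.14-fold between animals 1 and 2 and was still called (chi-square, adjusted p 1.42e-15), where 59.2% of 400 miRNAs were called.

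The size of the difference was set against that of all miRNAs. Of the 391 miRNAs, 39.9% had a span (highest over lowest animal) above 2-fold, and neither miR-34a-5p nor miR-34a-3p did. The median span over all tested miRNAs was 1.71-fold, and 28.6% of them had a smaller span than miR-34a-5p. Among miRNAs averaging 100 or more counts, 35.1% had a smaller span. Without animal 3, 8.75% of miRNAs spanned more than 2-fold and 28.7% had a smaller span than miR-34a-5p. Its place among all miRNAs moved with the other choices. A smaller span than that of miR-34a-5p was found for 53.2% of miRNAs without animal 1, for 18.7% without animal 2 and for 43.0% with library totals in place of TMM.

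miR-34a-3p was at 21.82, 18.98 and 18.004 TMM-scaled CPM in animals 1, 2 and 3, a span of 1.21-fold, and 9.72% of the tested miRNAs had a smaller one. That share was 30.7% without animal 3, 15.3% without animal 2 and 17.9% with library totals. It was 7.16% without animal 1 and 8.70% with DESeq2 size factors. miR-34a-3p was not called (chi-square, adjusted p 0.460). At its counts the ratio of animal 2 over animal 3 was 1.05 with an exact 95% counting interval of 0.763 to 1.46. This interval holds both 1 and the 1.41 of miR-34a-5p, so these counts do not separate equal levels from the difference seen on the other arm. miR-34c-5p fell below the mean count needed for the test. Its ratio of animal 2 over animal 3 was 1.05 with an interval of 0.287 to 4.20, which leaves differences of several fold undetectable at this depth.

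**Figure D2:**
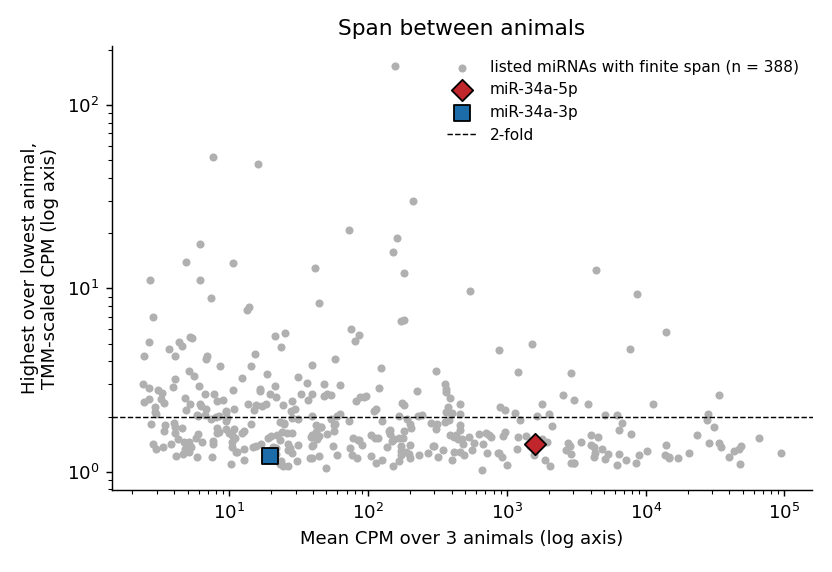
Highest over lowest animal in TMM-scaled CPM against mean CPM, both on log axes, for the 388 of 391 tested miRNAs with no animal at 0, with 1 point per miRNA. miR-34a-5p at 1.41-fold and miR-34a-3p at 1.21-fold lie below the dashed 2-fold line and below the median span of 1.71.

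For miR-34a-5p, animal 2 was highest and animal 3 lowest under TMM factors, library totals and DESeq2 size factors. The authors' normalized signal gave this order of the animals as well, but that signal is not scaled to library totals. Depth itself was highest in animal 2 and lowest in animal 3, so the normalized signal cannot serve as a separate check of the order. By library totals, 3 of the 5 marker lists had that order too. The kidney epithelial miRNAs summed to 77934, 82617 and 69339 CPM in animals 1, 2 and 3, the leucocyte miRNAs to 1621, 1727 and 1518 CPM, and the neuron miRNAs to 118 CPM, 119 CPM and 99.8 CPM. Under TMM factors only the sum of the kidney epithelial list kept it, at 77094, 78541 and 73732 CPM. Most of that sum was miR-204-5p, with a mean of 48124 CPM, which had this order, as did miR-204-3p, miR-429-3p and miR-200c-3p. Other names of the list did not. miR-192-5p, miR-194-5p and miR-200a-5p were highest in animal 3, and miR-200a-3p was highest in animal 1. Under DESeq2 size factors none of the 5 lists had the order of miR-34a-5p. The sum of the muscle miRNAs was highest in animal 1 under each of these scalings, at 562, 399 and 363 CPM by totals. miR-1-3p, with a mean of 415 CPM, made up most of that sum. By TMM-scaled CPM miR-1-3p was highest in animal 1, while miR-133a, miR-133b-3p and miR-206 were highest in animal 3. The sum of the erythroid miRNAs was highest in animal 3 under each, at 5025, 4374 and 5765 CPM by totals. Most of it was miR-451, with a mean of 4552 CPM. By TMM-scaled CPM miR-451 and miR-486-5p were highest in animal 3. miR-144, with a mean of 461 CPM, was highest in animal 1 and lowest in animal 3, and miR-486-3p was highest in animal 2. The part of these lists in the level of miR-34a-5p was not tested.

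The 2 arms of the miR-34a hairpin were compared inside each library, which needs no scaling. The 5p arm had 73.4, 96.1 and 72.0 times the counts of the 3p arm in animals 1, 2 and 3. The 3p arm made 1.34%, 1.03% and 1.37% of the hairpin's counts in the same animals, with Wilson 95% bounds of 1.10 to 1.64, 0.843 to 1.26 and 1.08 to 1.74. These intervals overlapped, and the mean was 1.25% ± 0.189 (SD, n = 3). The 5p arm was the larger in all 3 animals, and 92.6% of the 122 hairpins with both arms listed likewise kept the same larger arm.

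Among those hairpins, miR-34a was more one-sided than most. Its mean log2 ratio of 5p over 3p was 6.31, the median size of that ratio over all 122 was 4.33, and 37 hairpins were more one-sided in either direction. Its log2 ratio spanned 0.42 between animals, where the median was 1.20 and 17 hairpins spanned less. The ratio spanned more than 2-fold in 54.9% of the hairpins and not in miR-34a. The spans rest largely on the library of animal 3. Without it, the log2 ratio of miR-34a spanned 0.39, the median was 0.47, 49 hairpins spanned less and 16.4% spanned more than 2-fold. Without animal 1, 45 hairpins spanned less than miR-34a, and without animal 2 this number was 4. For miR-34c no arm ratio could be formed, since its 3p arm was not listed.

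**Figure D3:**
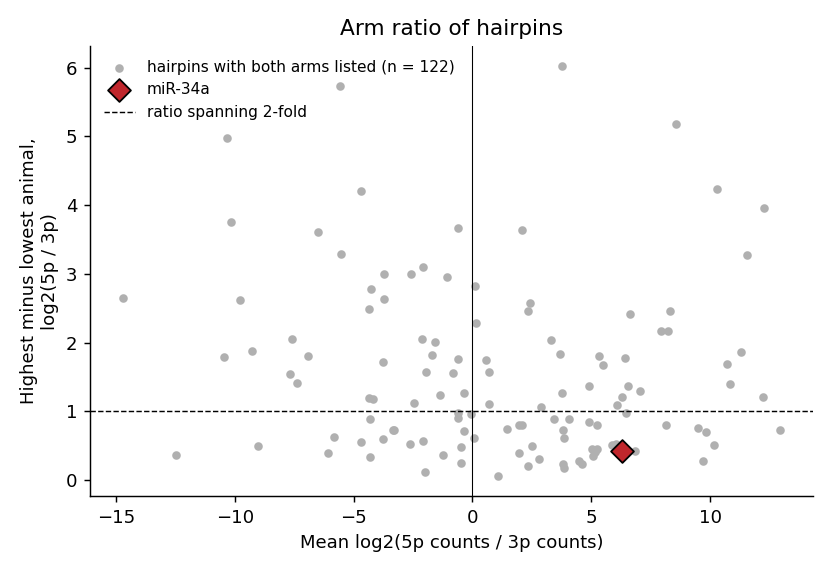
Span between animals of log2(5p counts / 3p counts), with 0.5 added to each count, against its mean over 3 animals for the 122 hairpins with both arms listed, with 1 point per hairpin. miR-34a lies far on the 5p side at 6.31 and low at 0.42, under the dashed line that marks a ratio spanning 2-fold.

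miRNAs whose values moved most like those of miR-34a-5p were sought among 258 other miRNAs averaging 100 or more counts. Likeness was the Euclidean distance between deviations of log2(TMM-scaled CPM + 1) from each miRNA's own mean over the 3 animals. The deviations of miR-34a-5p were 0.04, 0.23 and -0.27 in animals 1, 2 and 3. The nearest was miR-365-3p at a distance of 0.08, with 7915, 10324 and 5146 counts. miR-592-5p followed at 0.11 with 261, 304 and 165 counts, and miR-503-5p at 0.12 with 3225, 4439 and 2116 counts. By TMM-scaled CPM, all of these were highest in animal 2 and lowest in animal 3, as were 19.7% of the 391 tested miRNAs. The median distance over the 258 was 0.68. The opposite arm, miR-34a-3p, lay at 0.33, and 35 of the 258 were nearer to miR-34a-5p than it was. Its 95, 94 and 67 counts average below the 100 set for the 258, so counting error weighs more on its distance. That distance does not show that the arms moved apart. With 3 points per miRNA the likeness search is a description of these libraries only.

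**Figure D4:**
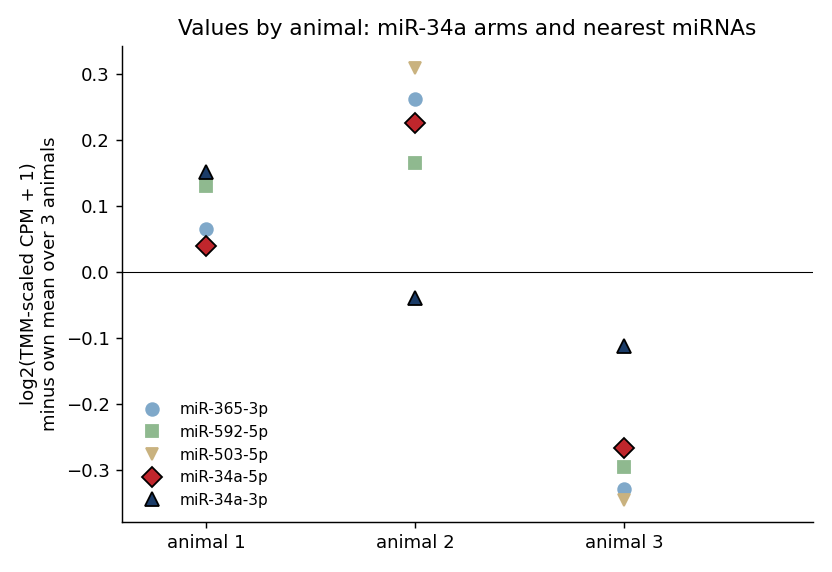
Deviation of log2(TMM-scaled CPM + 1) from the miRNA's own mean, by animal, for both miR-34a arms and the 3 miRNAs nearest to miR-34a-5p. miR-34a-5p lies at 0.23 in animal 2 and -0.27 in animal 3, while miR-34a-3p lies at -0.04 and -0.11.

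Other miRNAs that have been linked to p53, as transcriptional targets or through p53-dependent processing, were listed for comparison. Of 11 stems, 9 were listed, and miR-605 and miR-1246 were not. By the main arm of each, 7 of the 9 had a higher mean CPM than miR-34a-5p. The highest was miR-145-5p, abundant in smooth muscle, with 28107 CPM ± 9201 (SD, n = 3). miR-16-5p, which targets cell cycle and survival genes, had 8542 CPM ± 868, and miR-15a-5p of the same family had 4210 CPM ± 625. miR-143-3p, made from the same locus as miR-145, had 6387 CPM ± 1563. Renal miR-194-5p and miR-192-5p, also on the kidney epithelial list, had 4862 CPM ± 408 and 4292 CPM ± 425. miR-107-3p had 4374 CPM ± 3399, with 5920, 6724 and 477 CPM in animals 1, 2 and 3.

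Below miR-34a-5p were miR-215-5p, a relative of miR-192, with 18.9 CPM ± 4.83 (SD, n = 3), and epithelial miR-200c-3p with 3.29 CPM ± 1.82. The chi-square test with Benjamini-Hochberg adjustment called 9 of these 9, against 80.6% of all miRNAs tested. A span above 2-fold was seen in 3 of the 9, namely miR-107-3p, miR-200c-3p and miR-145-5p, against 39.9% of all. Calls depend on counts, and of the 9 only miR-215-5p and miR-200c-3p averaged under 100, at 82.0 and 14.7 counts. Among all miRNAs averaging 100 or more counts, 94.6% were called and 31.7% spanned more than 2-fold. Their median span was 1.53-fold, beside 1.71-fold for all miRNAs tested, and 4 of the 9 spanned less than miR-34a-5p. The spans above 2-fold depended on which animals were kept. Without animal 1, miR-107-3p and miR-200c-3p spanned more than 2-fold and miR-145-5p did not, against 23.5% of all miRNAs. Without animal 2, miR-145-5p and miR-107-3p did, of 8 tested, against 32.1% of all. Without animal 3, 0 of the 9 spanned more than 2-fold, against 8.75% of all. Their median span was then 1.27-fold beside 1.28-fold for all, and the chi-square test called 7 of the 9, against 59.2%. They did not share an order of the animals. By TMM-scaled CPM, miR-107-3p and miR-200c-3p were highest in animal 2 and lowest in animal 3, like miR-34a-5p, while miR-145-5p, miR-194-5p and miR-192-5p were highest in animal 3. By library totals miR-192-5p was highest in animal 1. miR-15a-5p and miR-16-5p, highest in animal 1 by TMM-scaled CPM, had the order of miR-34a-5p by library totals. They were at 4515, 4623 and 3491 CPM and at 9011, 9074 and 7540 CPM in animals 1, 2 and 3.

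**Figure D5:**
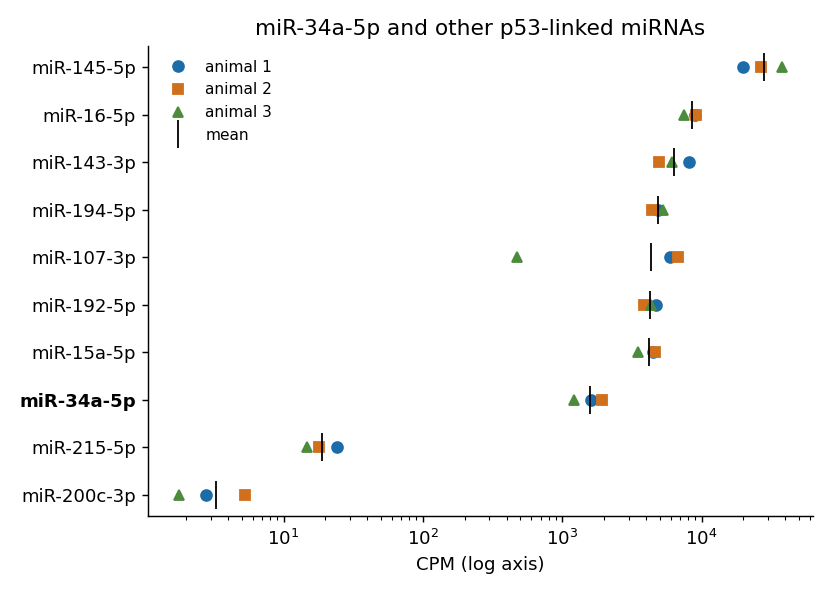
CPM on a log axis of miR-34a-5p and the main arms of 9 other p53-linked miRNAs, with 1 symbol per animal and a tick at the mean over 3 animals. miR-34a-5p, at 1585 CPM, lies below 7 of the 9 and above miR-215-5p and miR-200c-3p, and miR-107-3p of animal 3 stands far left of the other animals at 477 CPM.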

How the data were processed

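Small RNA of kidney cortex from 3 animals was sequenced. Per the labels' protocols, 5 µg of total RNA per animal was enriched for small RNA, and 12 ng of it made each library. The deposited raw table gives a count per mature miRNA. Per the file headers, reads were mapped to M. fascicularis miRNAs with 0 mismatches and miRNAs with at least 15 reads were kept. The aligner, miRNA release and handling of reads matching several names are not given in the sources used here. A second deposited table gives a normalized signal made with edgeR, per the file headers, which was found to be the raw count over that library's TMM factor and is not scaled to library totals.

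CPM used each library's total of listed counts. TMM factors from edgeR 4.0.16 (R 4.3.3) were 1.011, 1.052 and 0.940 for animals 1, 2 and 3. DESeq2 1.42.0 gave size factors as an alternative. The chi-square test used TMM effective library sizes for the 391 miRNAs averaging 10 or more counts and a threshold of 0.05 on adjusted p-values. A check of the test on simulated data had counting error only and library totals in place of TMM sizes. The planted changes were all larger than the 1.41-fold of miR-34a-5p, so smaller differences were not covered by that check. The chi-square test compares libraries, not conditions. Ratios of arms and members had 0.5 added to each count before log2, and likeness used log2(TMM-scaled CPM + 1). Without molecular identifiers, intervals and floors cover counting error only, and 1 library per animal does not separate animals from preparations.

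The miRNAs named are all members, the 3 nearest to miR-34a-5p by likeness, the 2 on each side of it in mean CPM, and the main arms of a p53-linked list. Members and lists were chosen with earlier results of these data known. Members with a mean count under 100 had no likeness search. The normalization, count minimum, pseudocount and each animal were varied. Mature sequences and genomic positions were not used here.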

Additional observations from a re-analysis of the deposited data

How the results depend on the processing

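Under the alternatives, 64 values were computed for the main results, and 3 of them departed by more than the SD over animals or, for counts, by over 1.5 times. All 3 concern the 156 miRNAs that spanned more than 2-fold over all families. That number was 82 at a mean count of at least 100, where fewer miRNAs are tested. Leaving out 1 animal gave values from 35 to 124, with 35 without animal 3 and 92 without animal 1. No member tested was among those spanning more than 2-fold in any of these settings. miR-34a-5p was called by the chi-square test in each setting, with an adjusted p between 1.75e-142 and 1.42e-15. Of all miRNAs tested, between 59.2% and 94.6% were called in the same settings, so these calls do not set miR-34a-5p apart. miR-34a-3p was called in none of the settings that tested it, with a chi-square adjusted p between 0.274 and 0.772. A minimum of 5 counts also counted miR-34c-5p as detected, for 3 members in place of 2. Depth limits miR-34c-5p most, since 5 to 7 counts leave its differences between animals unresolved. Leaving out each animal for the spans of arm ratios and of the p53-linked list, and rescaling the marker lists, were chosen after seeing the data. No pairing of samples between groups was possible because only 1 group was sampled, while members and arms were compared within each library.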
